A study of Mus musculus with 14 samples.

Results

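Axl, Mertk and Tyro3 form the TAM family of receptor tyrosine kinases, and Gas6, Pros1 and Mfge8 are secreted proteins that link phosphatidylserine on other membranes to receptors on the engulfing cell. These 6 genes were taken by symbol, with earlier results of these data known, from the 55335 genes of the deposited single-cell tables of mouse spinal cord, and all 6 were found. The study asked how the myeloid receptor Clec7a (dectin-1) shapes microglial immune responses in mice that model the motor neuron disease ALS. Spinal cords taken whole at the labelled age of P115-120 day were enzymatically dissociated, depleted of myelin with beads and profiled with a droplet assay of the 3′ ends of transcripts that counts unique molecular identifiers (UMIs). The 14 libraries fell into 4 groups: nTg, without the transgene (3 libraries); Clec7a-KO, labelled B6.129S6-Clec7atm1Gdb/J (4 libraries); SOD1G93A, labelled B6SJL-Tg(SOD1*G93A)1Gur/J and carrying a mutant human SOD1 transgene (3 libraries); and SOD1G93A/Clec7a-KO, with both alleles (4 libraries). The Clec7a loss was germline, so it was not limited to microglia. The strain names differ between groups, so strain background and genotype cannot be told apart.

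As background, phosphatidylserine sits on the inner leaflet of the plasma membrane of healthy cells and appears on the outer leaflet of dying cells and stressed synapses. Gas6 and protein S, the product of Pros1, bind it through a vitamin K-dependent Gla domain and bind TAM receptors with their other end. Protein S activates Tyro3 and Mertk, while Axl is served by Gas6. Mfge8 is not a TAM ligand: it carries phosphatidylserine to αv integrins. Mertk is known as the receptor of resting phagocytes and Axl as the TAM receptor raised in inflammation, and TAM signalling also restrains innate immune responses.

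Of 108892 barcodes, 90018 were kept (2566 to 10312 per library), with totals of 28819852 to 141204910 UMIs per library. Cells were clustered and clusters were named from marker genes, so the classes are microglia-like and so on and are not the authors' own. Clec7a itself checked the labels in microglia-like cells: it lay at 29.1 to 84.8 CPM (UMIs of a gene per 1000000 UMIs) in nTg, 883 to 1036 in SOD1G93A, 0.778 to 2.49 in Clec7a-KO and 2.07 to 3.78 in SOD1G93A/Clec7a-KO. Xist exceeded the Y-linked Ddx3y in nTg replicates 1 and 3, Clec7a-KO replicate 3 and SOD1G93A/Clec7a-KO replicate 4 and in no SOD1G93A library. In microglia-like, endothelial-like, astrocyte-like, ependymal-like and oligodendrocyte precursor-like cells, 1 cluster each held none of the SOD1G93A cells and mostly cells of nTg replicates 1 and 3 and Clec7a-KO replicate 3. The labels tie no library to a separate animal, so p-values measure the spread between these libraries, which may be technical. Of the kept barcodes, 1016 of 88995 distinct sequences occurred in more than 1 library, and no pair of libraries shared more than 29.

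The promoters of 4 members are shown because Axl made the largest change of the 6 in microglia-like cells, Axl, Gas6 and Pros1 rose together in astrocyte-like cells, and Mertk did not follow them. Each sequence is the 250 bases before the RefSeq start (GRCm38.p6), 5′ to 3′ on the gene's strand. Capitals mark the GC box (GGGCGG), the PU.1 motif (GAGGAAG) and the gamma-activated site (TTCNNNGAA), searched on both strands.
Axl, chr7:25788734-25788983, minus strand: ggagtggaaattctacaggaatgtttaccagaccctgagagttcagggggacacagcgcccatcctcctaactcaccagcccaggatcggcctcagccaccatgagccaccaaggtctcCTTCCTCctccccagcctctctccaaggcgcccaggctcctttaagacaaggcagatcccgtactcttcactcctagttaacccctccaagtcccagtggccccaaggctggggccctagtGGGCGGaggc
Mertk, chr2:128698665-128698914, plus strand: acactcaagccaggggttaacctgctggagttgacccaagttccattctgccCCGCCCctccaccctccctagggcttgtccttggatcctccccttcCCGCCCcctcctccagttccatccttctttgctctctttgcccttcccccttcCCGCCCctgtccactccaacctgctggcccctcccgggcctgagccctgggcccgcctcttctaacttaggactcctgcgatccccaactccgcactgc
Gas6, chr8:13494536-13494785, minus strand: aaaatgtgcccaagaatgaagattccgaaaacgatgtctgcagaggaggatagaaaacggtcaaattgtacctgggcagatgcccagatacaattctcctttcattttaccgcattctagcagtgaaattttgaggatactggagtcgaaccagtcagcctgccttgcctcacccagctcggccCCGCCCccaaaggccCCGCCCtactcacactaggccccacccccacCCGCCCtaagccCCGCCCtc
Pros1, chr16:62854057-62854306, plus strand: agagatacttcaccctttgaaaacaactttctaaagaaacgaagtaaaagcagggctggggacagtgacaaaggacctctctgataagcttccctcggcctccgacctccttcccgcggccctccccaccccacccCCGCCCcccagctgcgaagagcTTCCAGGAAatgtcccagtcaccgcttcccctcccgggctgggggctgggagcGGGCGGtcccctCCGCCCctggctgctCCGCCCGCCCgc
The GC box matched once in Axl, 3 times in Mertk, 4 times in Gas6 and 5 times in Pros1, where 2 of the matches overlap. It was present in 32.9% of 27025 promoters. The PU.1 motif, bound by the lineage factor of myeloid cells, matched once, in Axl, and was present in 10.4% of promoters. The gamma-activated site matched once, in Pros1 (7.18% of promoters). An AP-1 motif (TGANTCA, 6.87%) matched in none of the 6 promoters. An E-box (CANNTG, 66.0%) matched once each in Gas6, Pros1 and Mfge8. The windows of Axl, Mertk and Pros1 held 60.0%, 63.6% and 64.4% G and C, against a median of 52.0% over all promoters, and that of Gas6 held 54.8%.

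In the annotation, Axl spans chromosome 7, 25757273 to 25788705, Mertk chromosome 2, 128698956 to 128802894, and Tyro3 chromosome 2, 119797733 to 119818104. Gas6 spans chromosome 8, 13465374 to 13494490, Pros1 chromosome 16, 62854307 to 62929346, and Mfge8 chromosome 7, 79133768 to 79149060 (all GRCm38). Within Mertk lie the antisense gene Gm14011 and the small nucleolar RNA gene Gm23172. The 3′ end of Gas6 overlaps Tmem255b on the opposite strand. Tmem255b had 0.0875% as many UMIs as Gas6 in microglia-like cells but 4521 UMIs against 1301 of Gas6 in oligodendrocyte precursor-like cells, where Gas6 is therefore uncertain.

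Each gene had its own distribution over the classes when all libraries were summed. Axl, the inflammation-linked receptor, was at 285 CPM in mural-like cells, 265 in border-associated macrophage-like cells and 263 in microglia-like cells. Its place among the classes differed between groups. In nTg its mean, in CPM scaled by TMM within each class, was 23.7 in microglia-like cells, below 231 in mural-like and 67.8 in astrocyte-like cells. In SOD1G93A it was 356 in microglia-like and 294 in mural-like cells. The TMM factors of SOD1G93A were 0.854 to 0.932 in microglia-like and 0.986 to 1.07 in mural-like cells, so no order of this pair can be read. Mertk was highest in microglia-like cells (217), followed by border-associated macrophage-like cells (129) and astrocyte-like cells (91.0). Tyro3, the TAM receptor known from neurons and the oligodendrocyte lineage, was highest in oligodendrocyte precursor-like cells (17.9). Neuron-like cells were at 8.07 and astrocyte-like cells at 7.19. By the median library, per total UMIs, they were at 5.38 and 6.59, so no order of this pair can be read. Tyro3 was nearly absent from microglia-like cells, with 90 UMIs in all 52147 of them (0.145 CPM).

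The bridging molecules had their own distributions over the classes. Gas6 was at 326 CPM in ependymal-like, 283 in endothelial-like, 213 in border-associated macrophage-like and 82.7 in microglia-like cells. Pros1 was at 174 in the 99 fibroblast-like cells and 141 in microglia-like cells. By the median library, per total UMIs in every class, Gas6 was at 296 (range 100.5 to 463) in border-associated macrophage-like and 275 in endothelial-like cells. Pros1 was then at 155 (range 0 to 337) in fibroblast-like and 157 in microglia-like cells, so no order of these pairs can be read. Mfge8, a known product of smooth muscle cells and pericytes, was highest in mural-like cells (1828), and the next named class, fibroblast-like, had 114.8. These sums weight libraries by depth and class size, and no order between classes was tested. The border-associated macrophage-like cluster also carried microglia markers. Its own markers and those of microglia lay on average 5.18 and 4.54 above the lower quartile of clusters on the log2 scale. At Leiden resolution 0.5 no cluster took that name.

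**Figure D1:**
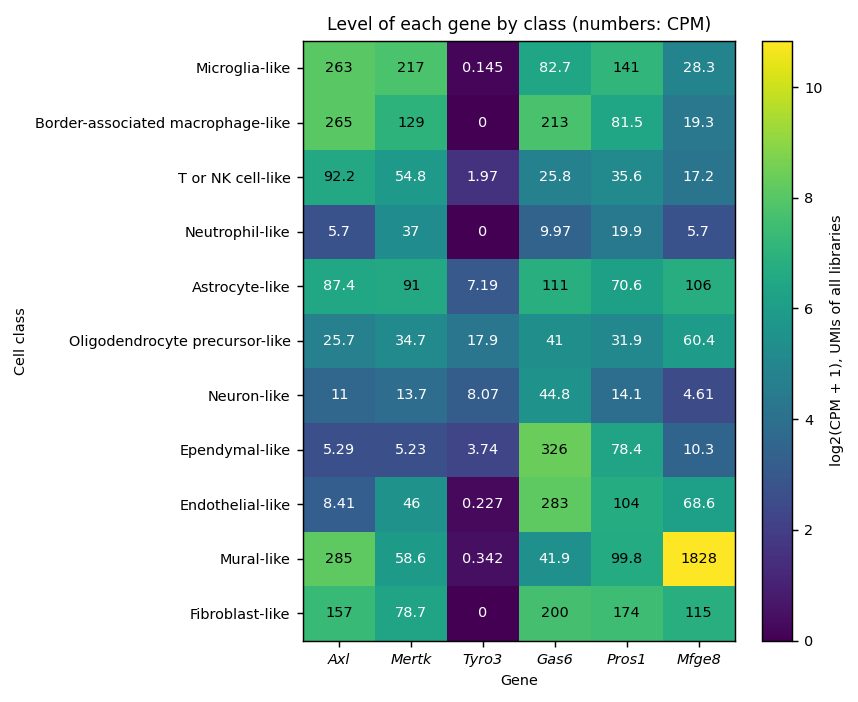
Heat map of the 6 genes (columns) in 11 named cell classes (rows), coloured by log2(CPM + 1) from UMIs summed over all libraries, with the CPM printed in each cell. Mfge8 in mural-like cells reaches 1828 CPM, Gas6 326 in ependymal-like cells, and Tyro3 is at or below 17.9 everywhere.

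The share of each of 5 transcripts that came from microglia-like cells was higher in the cords with the transgene. Microglia-like cells held 30.5% ± 4.0 (SD, n = 3) of all Axl UMIs in nTg, 34.3% ± 8.3 (SD, n = 4) in Clec7a-KO, 95.8% ± 1.1 (SD, n = 3) in SOD1G93A and 95.6% ± 0.72 (SD, n = 4) in SOD1G93A/Clec7a-KO. For Mertk they held 80.7%, 83.8%, 95.1% and 93.7% in the same order, and for Pros1 52.8%, 59.0%, 86.1% and 85.6%. For Gas6 the shares were 13.8%, 19.9%, 63.8% and 61.5%, and for Mfge8 6.44%, 9.57%, 41.7% and 49.4%. These shares also move with the number of microglia-like cells recovered, 1027 to 7474 per library, and how much of each share that number sets was not tested.

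In microglia-like cells, Axl rose in cords with the transgene, while Mertk was called lower in SOD1G93A/Clec7a-KO against Clec7a-KO and not in SOD1G93A against nTg. The test was edgeR's quasi-likelihood test on UMIs summed per library, with Benjamini-Hochberg adjustment over the 16653 genes tested, and library values are CPM scaled by edgeR's TMM factors. Of the 5 members tested, 2 rose and 0 fell in SOD1G93A against nTg, where 33.1% of all genes were called in either direction (19.8% higher, 13.3% lower). In SOD1G93A/Clec7a-KO against Clec7a-KO 2 rose and 1 fell, where 46.7% of genes were called (25.7% higher, 21.0% lower). Tyro3 did not pass the filter on low counts. Scaling by total UMIs, not TMM, moved the median log2 change of all genes in those comparisons from 0.0096 and 0.0030 to −0.44 and −0.51. It changed the calls from 3300 higher and 2220 lower to 1513 and 5821, and from 4274 and 3497 to 1891 and 7817.

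Axl was 21.4, 16.4 and 33.3 CPM in the nTg libraries and 31.3, 24.7, 13.9 and 42.8 in the Clec7a-KO libraries. It was 322, 393 and 353 CPM in SOD1G93A and 330, 410, 498 and 451 in SOD1G93A/Clec7a-KO. Every library with the transgene lay above every library without it. The means were 23.7 ± 8.64 (SD, n = 3) in nTg and 356 ± 35.4 (SD, n = 3) in SOD1G93A, which gave a log2 change of 3.91 (SE 0.36, edgeR adjusted p = 2.9e-06). Among the libraries lacking Clec7a, the means were 28.2 ± 12.1 (SD, n = 4) and 422 ± 71.1 (SD, n = 4), which gave a log2 change of 3.91 (SE 0.31, edgeR adjusted p = 4e-07). Standard errors were derived from the test statistic. The summed level of 8 border-associated macrophage markers rose beside it, from 4.50 to 20.5 CPM in nTg to 50.7 to 109 in SOD1G93A, where 3 of 7 tested were called higher and none lower. The sum of 6 monocyte markers went from 4.70 to 5.68 CPM to 142 to 196, with 1 of 4 tested called higher. The part of such cells in the Axl difference was not tested.

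Axl also differed between groups within single clusters of microglia-like cells. Clusters 5 and 6 were led by Crybb1 and P2ry12, genes of resting microglia. Cluster 8, led by Xist and Tsix before Crybb1, held 0.0437% to 86.1% of nTg microglia-like cells (mean 55.4%) and 0.0% of those of SOD1G93A. Axl averaged 29.0 CPM there over 2 nTg libraries, with no SOD1G93A counterpart. In cluster 5 Axl averaged 18.4 CPM over the 2 nTg libraries with at least 20 cells and 188 ± 6.72 (SD, n = 3) in SOD1G93A. In cluster 6 it averaged 11.7 ± 4.06 (SD, n = 3) in nTg and 139 ± 21.7 (SD, n = 3) in SOD1G93A. The values of nTg replicates 1 and 3 there rested on 5 and 3 UMIs. Axl was higher again in clusters 0 and 4, the most frequent in SOD1G93A by mean share. It averaged 337 ± 15.6 (SD, n = 3) in SOD1G93A in cluster 0, led by Ifnb1 and Acod1, and 339 ± 5.42 (SD, n = 3) in cluster 4, led by Gpnmb and Spp1. Cluster 0 held 49.9% of microglia-like cells in SOD1G93A (range 20.3% to 68.3%) and 9.02% in SOD1G93A/Clec7a-KO (2.11% to 17.3%). Clec7a itself was also among the leading genes of cluster 0. The part of the deleted gene in that difference of shares was not tested. In SOD1G93A/Clec7a-KO clusters 3 (26.3% ± 30.4, SD, n = 4), 4 (25.9%) and 1 (25.7%) were the most frequent, with Axl at 390, 370 and 312. Cluster 3 came there mostly from replicates 3 and 4. The few nTg cells of cluster 0 averaged 155 CPM over 2 libraries. Clusters were built from 2000 variable genes of the same cells, so these within-cluster levels are descriptions without a test, and they are plain CPM.

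More microglia-like cells carried an Axl UMI at equal depth. After every cell was thinned to 2000 UMIs, the share of cells with an Axl UMI was 4.15%, 3.15% and 5.96% in nTg and 40.7%, 45.0% and 43.3% in SOD1G93A. The groups did not overlap, and the difference of 38.6 percentage points had an exact permutation p = 0.1 (two-sided), the smallest that 3 against 3 libraries can give (adjusted 0.2 over 2 comparisons). In SOD1G93A/Clec7a-KO it was 41.1%, 47.1%, 51.1% and 47.2%, a difference of 3.62 points from SOD1G93A (exact permutation p = 0.286, adjusted 0.286, smallest possible 0.0571). Without thinning the means were 15.9% in nTg and 87.2% in SOD1G93A. In ependymal-like cells, where Axl is low, the thinned share was 0.742% in nTg and 1.09% in SOD1G93A. Median depths were 7193 to 10257 UMIs in nTg and 8872 to 21868 in SOD1G93A microglia-like cells, and 8373 to 10316 and 4576 to 9654 in ependymal-like cells. The thinned shares used 5526 of 6060 nTg and 15206 of 15636 SOD1G93A microglia-like cells.

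**Figure D2:**
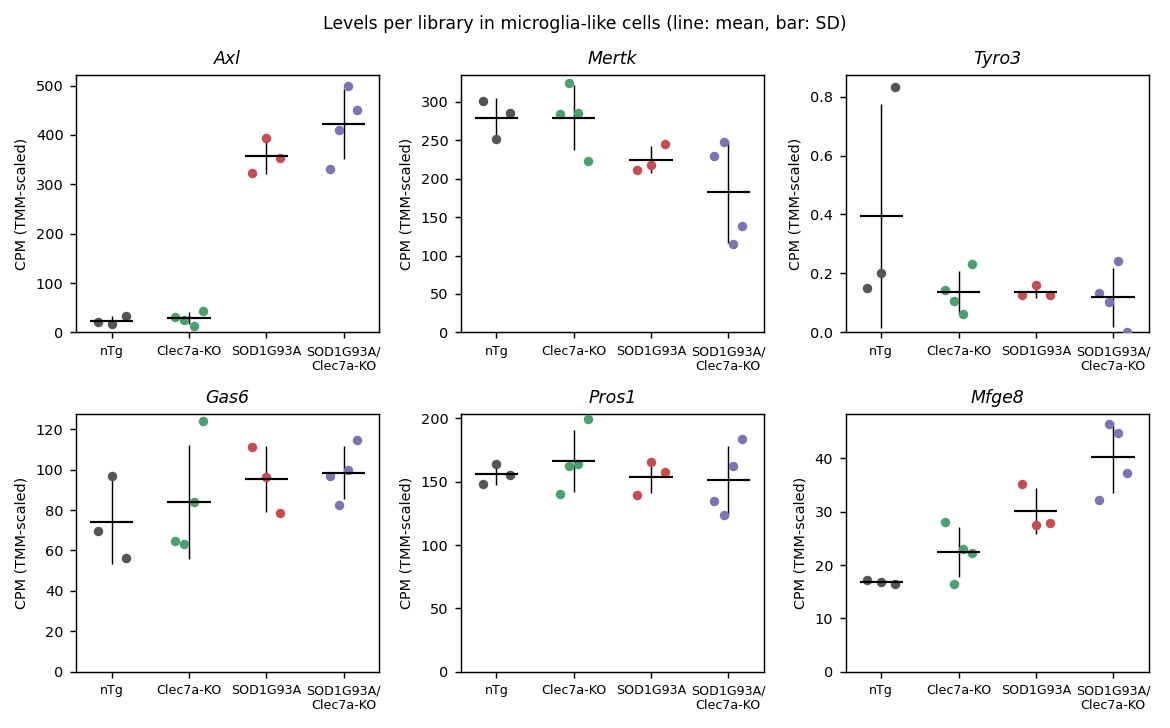
CPM of the 6 genes in microglia-like cells for each library (points) in the 4 groups, with the group mean (line) and SD (bar), each panel on its own linear axis from 0. Axl lies at or below 42.8 CPM in every library without the transgene and at or above 322 in every library with it, while the groups overlap for Gas6 and Pros1.

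Mertk, the receptor of resting phagocytes, did not rise with Axl. It was 301, 252 and 286 CPM in nTg, 212, 217 and 246 in SOD1G93A, and 285, 325, 285 and 223 in Clec7a-KO. In SOD1G93A/Clec7a-KO the libraries split, with 230 and 247 CPM in replicates 1 and 2 and 114.7 and 138 in replicates 3 and 4. The SOD1G93A libraries lay below all nTg libraries, but the log2 fold change of −0.31 (SE 0.25) did not pass the test (edgeR adjusted p = 0.35). In SOD1G93A/Clec7a-KO against Clec7a-KO Mertk fell by 0.61 on the log2 scale (SE 0.22, edgeR adjusted p = 0.031). That call was lost, at adjusted p of 0.057 to 0.086, without SOD1G93A/Clec7a-KO replicate 3 or 4 or Clec7a-KO replicate 1, 2 or 3. The log2 fold change was then −0.51, −0.55, −0.61, −0.53 and −0.61. It was also lost when only the groups compared were fitted (−0.68, edgeR adjusted p = 0.058). With total UMIs as the scaling, Mertk was called lower in SOD1G93A against nTg too (log2 fold change −0.77, edgeR adjusted p = 0.041).

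Mertk varied with microglial state. In the P2ry12-led clusters 5 and 6 it averaged 338 and 312 CPM in nTg and 308 ± 19.2 (SD, n = 3) and 311 ± 39.6 (SD, n = 3) in SOD1G93A. Those levels were close to each other within the spread of the libraries. In cluster 8, without SOD1G93A cells, Mertk averaged 378 over 2 nTg libraries. In cluster 7, whose cells were shallow (median UMIs 0.362 times those of their own library), Mertk was instead higher in SOD1G93A, at 93.5 ± 23.3 (SD, n = 3) in nTg and 175 ± 36.0 (SD, n = 3) in SOD1G93A without overlap. In cluster 0 it averaged 162 over 2 nTg libraries and 199 in SOD1G93A. In SOD1G93A it averaged 166 ± 26.7 (SD, n = 3) in the Gpnmb-led cluster 4 and 121 ± 15.2 (SD, n = 3) in cluster 2, led by the cell division genes Mki67 and Top2a. Cluster 4 made up 0.154% of microglia-like cells in nTg, 0.155% in Clec7a-KO, 17.2% in SOD1G93A and 25.9% in SOD1G93A/Clec7a-KO. Replicates 3 and 4 of SOD1G93A/Clec7a-KO were the lowest of their group for Mertk in each of the 7 clusters with at least 20 cells in all 4 libraries. The labels give them library numbers 13 and 15, against 2 and 3 for replicates 1 and 2. With library number as a covariate, Mertk was called lower in SOD1G93A against nTg microglia-like cells (log2 fold change −0.61, edgeR adjusted p = 0.016). Without cluster 4 the Mertk difference between the groups lacking Clec7a was −0.54 on the log2 scale (edgeR adjusted p = 0.064).

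Axl and Mertk were found together in more cells of transgenic cords at equal depth. Cells with a UMI of both made up 1.85%, 1.14% and 2.35% of thinned microglia-like cells in nTg and 12.7%, 13.7% and 15.05% in SOD1G93A. In SOD1G93A/Clec7a-KO they made up 13.3%, 15.3%, 8.24% and 9.27%, the lower pair again replicates 3 and 4. Among the Axl-positive cells, 40.1% ± 4.31 (SD, n = 3) had a Mertk UMI in nTg and 32.1% ± 2.31 (SD, n = 3) in SOD1G93A. That share was 41.4%, 42.3%, 34.6% and 30.0% in Clec7a-KO and 32.3%, 32.5%, 16.1% and 19.6% in SOD1G93A/Clec7a-KO. Over all thinned cells the Mertk share was 46.2% ± 3.30 (SD, n = 3) and 32.4% ± 2.28 (SD, n = 3). These shares were not tested.

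**Figure D3:**
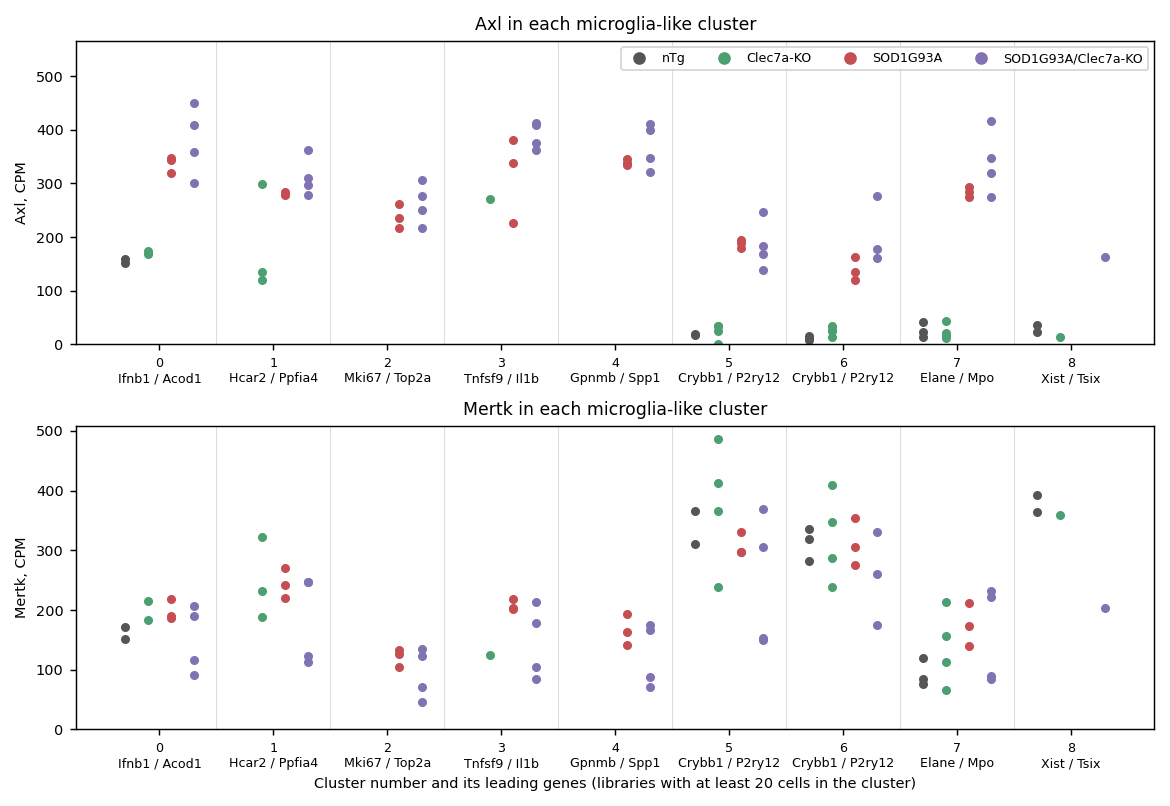
Axl (top) and Mertk (bottom) in plain CPM for each library with at least 20 cells (points, coloured by group) in each of the 9 microglia-like clusters, named by number and leading genes. In clusters 5 and 6 the SOD1G93A libraries lie between 120 and 194 CPM for Axl and every nTg library at or below 18.7, while for Mertk the groups overlap there.

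Tyro3 was close to the limit of detection in microglia-like cells in all 4 groups. Its highest library was 0.833 CPM, in nTg replicate 3. In oligodendrocyte precursor-like cells, where it was highest, the group means were 18.8 ± 3.79 (SD, n = 3) CPM in nTg, 18.2 ± 1.501 (SD, n = 4) in Clec7a-KO, 16.7 ± 2.75 (SD, n = 3) in SOD1G93A and 18.2 ± 4.84 (SD, n = 4) in SOD1G93A/Clec7a-KO. Those means differed by less than the spread between libraries.

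Of the bridging molecules, Mfge8 rose in microglia-like cells with the transgene and Gas6 and Pros1 did not pass the test. Mfge8 was 17.1, 16.8 and 16.5 CPM in nTg and 35.1, 27.6 and 27.8 in SOD1G93A, groups that did not overlap. It was 27.99, 16.5, 22.9 and 22.2 in Clec7a-KO and 32.2, 46.4, 44.8 and 37.3 in SOD1G93A/Clec7a-KO, again without overlap. Of the 972 Mfge8 UMIs of Clec7a-KO replicate 1, 302 came from 9 cells of cluster 4 (1863 CPM). The log2 fold change was 0.84 in both comparisons (SE 0.19 and 0.16, edgeR adjusted p = 0.0034 and 0.00077). With total UMIs as the scaling both calls were lost, at log2 fold changes of 0.40 and 0.32 (edgeR adjusted p = 0.11 and 0.12). Within single clusters, in plain CPM and with no test, Mfge8 averaged 17.3 (2 libraries) in nTg and 21.8 in SOD1G93A in cluster 5, 21.1 and 17.7 in cluster 6, and 23.9 and 24.3 in cluster 7, with overlap in each. In cluster 0 it was 7.52 over 2 nTg libraries, on 7 and 1 UMIs, and 23.7 in SOD1G93A. The third nTg library, with 14 cells there, was at 16.9. In cluster 4, rare without the transgene, it was 42.1 in SOD1G93A. Without cluster 4 the class difference between SOD1G93A and nTg was 0.61 on the log2 scale (SE 0.17, edgeR adjusted p = 0.014), and the part of the other cluster shares in it was not tested. Per total UMIs of each class, without TMM scaling, Mfge8 stood at 1.16% of its mural-like level in nTg and 1.33% in SOD1G93A, while the mural markers stood at 0.0701% and 0.0336% of their mural-like level. The part of mural transcripts in the Mfge8 of microglia-like cells was not tested.

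Gas6, the ligand of Axl, was 69.8, 97.1 and 56.1 CPM in nTg and 111, 96.4 and 78.7 in SOD1G93A microglia-like cells. It was 64.9, 63.1, 84.0 and 124 in Clec7a-KO and 96.7, 82.7, 99.9 and 114.6 in SOD1G93A/Clec7a-KO. The groups overlapped, and the log2 fold changes with the transgene were 0.36 (SE 0.25, edgeR adjusted p = 0.30) and 0.23 (SE 0.22, edgeR adjusted p = 0.41). Pros1, the gene of protein S, was 148, 164 and 155 CPM in nTg and 139, 165 and 157 in SOD1G93A. Its log2 fold changes were −0.02 (SE 0.17, edgeR adjusted p = 0.95) and, between the groups without Clec7a, −0.14 (SE 0.15, edgeR adjusted p = 0.44). With total UMIs as the scaling Pros1 was called lower in both, with log2 fold changes of −0.47 and −0.65 (edgeR adjusted p = 0.014 and 0.00042).

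Astrocyte-like cells showed a different exchange of members. With the transgene the receptor Axl and the bridges Gas6 and Pros1 rose, and the receptor Mertk and the bridge Mfge8 fell, in sums over the whole class. Within cluster 17, the astrocyte-like cluster that held the SOD1G93A cells, Mertk averaged 47.5 CPM in nTg and 47.4 in SOD1G93A, and Mfge8 75.6 and 77.7, all in plain CPM. Those nTg means give equal weight to 91 and 80 cells of replicates 1 and 3 and to 614 cells of replicate 2. Replicate 2 was at 73.3 for Mertk and 119 for Mfge8. From Clec7a-KO to SOD1G93A/Clec7a-KO the means in this cluster went from 93.9 to 69.4 for Mertk and from 114 to 67.4 for Mfge8. Of the 6 members tested, 3 rose and 2 fell in SOD1G93A against nTg, where 31.6% of 12873 genes were called (16.7% higher, 14.8% lower). In SOD1G93A/Clec7a-KO against Clec7a-KO 3 rose and 1 fell, where 30.8% were called (16.5% higher, 14.3% lower).

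In the class sums of SOD1G93A against nTg, without the subtraction described below, Pros1 made the largest change of the members. It was 57.0, 39.5 and 54.0 CPM in nTg and 103, 127 and 140 in SOD1G93A astrocyte-like cells, and 59.8, 50.6, 53.1 and 37.8 in Clec7a-KO against 106, 118, 72.6 and 138 in SOD1G93A/Clec7a-KO. No library of a group without the transgene reached one with it. The log2 fold changes were 1.30 (SE 0.21, edgeR adjusted p = 0.00032) and 1.04 (SE 0.20, edgeR adjusted p = 0.001).

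Gas6 was 101, 79.3 and 88.9 CPM in nTg and 121, 183 and 180 in SOD1G93A, which gave a log2 change of 0.85 (SE 0.18, edgeR adjusted p = 0.0025). From Clec7a-KO to SOD1G93A/Clec7a-KO it went from 88.8, 95.6, 87.7 and 99.9 to 153, 191, 163 and 125, which gave a log2 change of 0.80 (SE 0.17, edgeR adjusted p = 0.0018). The groups did not overlap in either comparison. The 125 of SOD1G93A/Clec7a-KO replicate 4 rested on 19 UMIs of 35 cells. Axl was 65.3, 62.0 and 76.1 CPM in nTg and 160, 128 and 104 in SOD1G93A, which gave a log2 change of 0.93 (SE 0.22, edgeR adjusted p = 0.0045). Between the groups without Clec7a the log2 fold change of Axl was 0.88 (SE 0.20, edgeR adjusted p = 0.0036), from 63.6 to 106 CPM to 92.2 to 177 CPM, with 1 library overlapping.

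Mertk was 116, 72.5 and 87.9 CPM in nTg and 50.1, 37.2 and 57.5 in SOD1G93A astrocyte-like cells. It fell by 0.92 on the log2 scale (SE 0.27, edgeR adjusted p = 0.016), without overlap of the groups. The call was lost without SOD1G93A replicate 2 (log2 fold change −0.77, edgeR adjusted p = 0.074) or nTg replicate 1 (−0.71, edgeR adjusted p = 0.081), and with the sex of the library, read from Xist, as a covariate (−0.81, edgeR adjusted p = 0.10). Between the groups without Clec7a, the difference of −0.53 (SE 0.24) did not pass (edgeR adjusted p = 0.11). Mfge8 was 125, 117 and 136 CPM in nTg and 114, 73.4 and 50.6 in SOD1G93A. It fell by 0.70 (SE 0.23, edgeR adjusted p = 0.028) and, between the groups without Clec7a, by 0.71 (SE 0.21, edgeR adjusted p = 0.018). The first of these Mfge8 calls was lost without SOD1G93A replicate 2 or 3 or nTg replicate 1 or 3 (log2 fold changes −0.66, −0.43, −0.70 and −0.64) and with Xist as covariate (−0.64, edgeR adjusted p = 0.12). The second was lost without SOD1G93A/Clec7a-KO replicate 2 or Clec7a-KO replicate 2 or 3 (−0.67, −0.64 and −0.65). Tyro3 was 4.60 to 10.2 CPM without the transgene and 0 to 7.26 with it and did not pass. The 0 came from the 35 cells of SOD1G93A/Clec7a-KO replicate 4. The other libraries with the transgene held 4 to 12 Tyro3 UMIs, so these levels are near the floor.

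**Figure D4:**
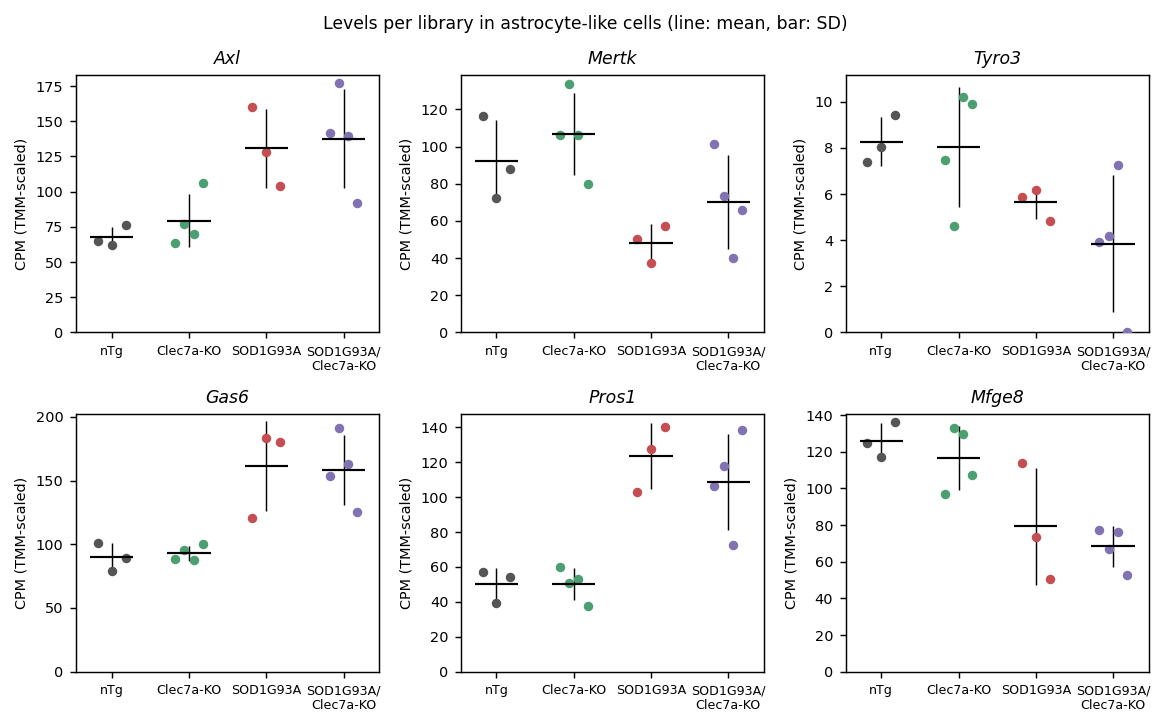
CPM of the 6 genes in astrocyte-like cells for each library (points) in the 4 groups, with the group mean (line) and SD (bar), each panel on its own linear axis from 0. Pros1 lies at or below 59.8 CPM in every library without the transgene and at or above 72.6 with it, and Mertk lies at or below 57.5 in SOD1G93A and at or above 72.5 in nTg.

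Microglial transcripts moved with these astrocyte results. The 12 microglia markers summed to 0.632% to 1.03% of their microglia-like level in nTg astrocyte-like cells, 0.543% to 6.25% in Clec7a-KO, 4.36% to 18.7% in SOD1G93A and 4.58% to 23.3% in SOD1G93A/Clec7a-KO. In SOD1G93A against nTg 9 of the 12 were called higher and none lower. When that percentage of each library's microglia-like profile was subtracted, an alternative chosen after seeing the data, Pros1 (log2 fold change 1.34, edgeR adjusted p = 0.00013) and Gas6 (0.92, edgeR adjusted p = 0.0013) were as large as before. Axl was 0.72 (edgeR adjusted p = 0.015) and Mertk −1.37 (edgeR adjusted p = 0.0025). Mfge8 was −0.58 (edgeR adjusted p = 0.066). Between the groups without Clec7a, Axl was 0.43 after subtraction and no longer passed (edgeR adjusted p = 0.12), while Mertk was −1.03 and passed (edgeR adjusted p = 0.013). Mfge8 was −0.58 there too and no longer passed (edgeR adjusted p = 0.059).

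The astrocyte-like class held 2 clusters, and cluster 18 came from nTg replicates 1 and 3 and Clec7a-KO replicate 3 with no SOD1G93A cell. Within cluster 17, present in all groups, Pros1 was 130, 39.9 and 158 CPM in nTg and 101, 124 and 140 in SOD1G93A. There the groups overlapped, since the 91 and 80 cells of nTg replicates 1 and 3 in this cluster had high Pros1, while the 520 and 551 cells of the same libraries in cluster 18 had 45.9 and 42.6 CPM. Within cluster 17 Gas6 was 130, 80.2 and 126 CPM in nTg and 118, 178 and 179 in SOD1G93A. Axl was 43.4, 62.7 and 121 CPM and 156, 125 and 103 in the same order, also with overlap. Mertk was 43.4, 73.3 and 25.6 CPM in nTg and 48.9, 36.1 and 57.2 in SOD1G93A, and Mfge8 was 49.9, 119 and 58.3 against 111, 71.3 and 50.4, both with overlap. In cluster 18 the mean over the 2 nTg libraries was 111 for Mertk and 141 for Mfge8. Between the groups without Clec7a, which both lie mainly in cluster 17, Gas6 was 90.0, 93.1, 119 and 99.3 CPM against 151, 182, 159 and 130, without overlap. Mfge8 did not overlap either, at 98.3 to 129 against 54.8 to 76.4. The 119 of Gas6 rested on 31 UMIs of 60 cells in Clec7a-KO replicate 3. SOD1G93A/Clec7a-KO replicate 4 had 35 cells. Its values of Gas6 (130), Mfge8, Axl and Pros1 rested on 19, 8, 14 and 21 UMIs. The groups overlapped in Pros1, Axl and Mertk: Pros1 was 37.6 to 116 against 70.8 to 144, Axl 64.4 to 106 against 95.9 to 169, and Mertk 57.8 to 130 against 38.9 to 100.1. The clusters were built from the expression of these same cells, so no test was made within them.

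Outside microglia-like and astrocyte-like cells few members changed. Axl was called higher in endothelial-like cells, with 1 of 5 members called in each of the comparisons of transgene against none, where 0.922% and 0.915% of 13340 genes were called. It was 4.11, 4.47 and 4.30 CPM in nTg and 18.03, 17.7 and 11.5 in SOD1G93A (log2 fold change 1.87, SE 0.38, edgeR adjusted p = 0.026). Without Clec7a it was 8.19, 4.70, 3.26 and 3.22 against 16.3, 26.6, 18.01 and 7.72 (log2 fold change 1.78, SE 0.34, edgeR adjusted p = 0.015), with 1 library overlapping. Microglia markers stood at 0.338% to 0.604% of their microglia-like level in nTg endothelial-like cells and at 2.05% to 4.01% in SOD1G93A. After subtraction of that share, the log2 fold changes of Axl were 0.63 (edgeR adjusted p = 1) and −0.26 (edgeR adjusted p = 0.91). The first call was also lost without any 1 of the nTg libraries (log2 fold changes 1.84, 1.94 and 1.88) or SOD1G93A replicate 1 or 2 (1.77 and 1.78), and with Xist as covariate (1.40, edgeR adjusted p = 0.42). The second was lost without SOD1G93A/Clec7a-KO replicate 2 (1.53) or Clec7a-KO replicate 2 or 3 (1.77 and 1.64), and when only the groups compared were fitted (1.81, edgeR adjusted p = 0.083).

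In ependymal-like cells Axl also moved together with microglial transcripts. Axl was 2.52, 3.18 and 2.79 CPM in nTg and 9.01, 8.61 and 7.20 in SOD1G93A, a log2 fold change of 1.52 (SE 0.36) that did not pass (edgeR adjusted p = 0.063, where 0.832% of 15380 genes were called). No member was called there by edgeR, 1 of 6 had an unadjusted p under 0.05, and Axl was called by DESeq2 (adjusted p = 0.043). After subtraction of microglial RNA, Axl was at 0 in 2 of the 3 SOD1G93A libraries, so the fitted difference (−1.80, edgeR adjusted p = 0.83) rests on the floor and gives no direction. On the Clec7a-KO background Axl rose by 2.13 (SE 0.32, edgeR adjusted p = 0.0012, where 1.42% of genes were called). After the same subtraction, which left 1 of 4 SOD1G93A/Clec7a-KO libraries at 0, that value was −0.25 (edgeR adjusted p = 0.90). In SOD1G93A ependymal-like cells Axl stood at 2.58% of its microglia-like level and the microglia markers at 2.94%. Gas6, which was highest in this class, had means of 320 ± 39.0 (SD, n = 3) in nTg, 278 ± 31.5 (SD, n = 3) in SOD1G93A, 365 ± 58.6 (SD, n = 4) in Clec7a-KO and 354 ± 80.3 (SD, n = 4) in SOD1G93A/Clec7a-KO, and it was not called.

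Pros1 rose in oligodendrocyte precursor-like cells of SOD1G93A cords, the only member of 6 called there, where 1.5% of 13236 genes were called. It was 19.9, 23.3 and 16.3 CPM in nTg and 32.1, 45.4 and 52.3 in SOD1G93A, without overlap (log2 fold change 1.14, SE 0.25, edgeR adjusted p = 0.028). The call was lost without any 1 of the nTg libraries (log2 fold changes 1.16, 1.27 and 1.01), SOD1G93A replicate 2 (1.11) or replicate 3 (0.99), and with Xist as covariate (1.12, edgeR adjusted p = 0.18). After microglial RNA was subtracted the value was 1.12 (edgeR adjusted p = 0.061). Between the groups without Clec7a the log2 fold change was 0.60 (SE 0.24) and did not pass (edgeR adjusted p = 0.17); 0 of 6 members were called by edgeR there and 2 had an unadjusted p under 0.05, where 3.62% of genes were called.

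The level of Mfge8 was highest in mural-like cells. No member was called there in SOD1G93A against nTg or in SOD1G93A/Clec7a-KO against Clec7a-KO (0.107% and 0.723% of 7466 genes called). Mfge8 was 1823 ± 60.2 (SD, n = 3) CPM in nTg, 1839.9 ± 72.0 (SD, n = 4) in Clec7a-KO, 2082 ± 204 (SD, n = 3) in SOD1G93A and 2079 ± 129 (SD, n = 4) in SOD1G93A/Clec7a-KO. Axl was 235, 238 and 220 CPM in nTg and 300, 293 and 290 in SOD1G93A. These groups did not overlap, but the log2 fold change of 0.34 (SE 0.23) did not pass (edgeR adjusted p = 1). Microglia markers stood at 0.298% to 2.77% of their microglia-like level in nTg mural-like cells and at 5.02% to 5.13% in SOD1G93A. After subtraction of that share Axl was 224 to 244 CPM in nTg and 288 to 301 in SOD1G93A. Axl in Clec7a-KO, at 322, 281, 333 and 422, also lay above nTg without overlap, and its log2 fold change of 0.55 (SE 0.21) did not pass either (unadjusted p = 0.016, edgeR adjusted p = 1, where 0.0% of genes were called). Of the 5 members tested, 0 had an unadjusted p under 0.05 in SOD1G93A against nTg. Between the groups lacking Clec7a, Gas6 did (log2 fold change −0.68, SE 0.28, edgeR adjusted p = 0.51).

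**Figure D5:**
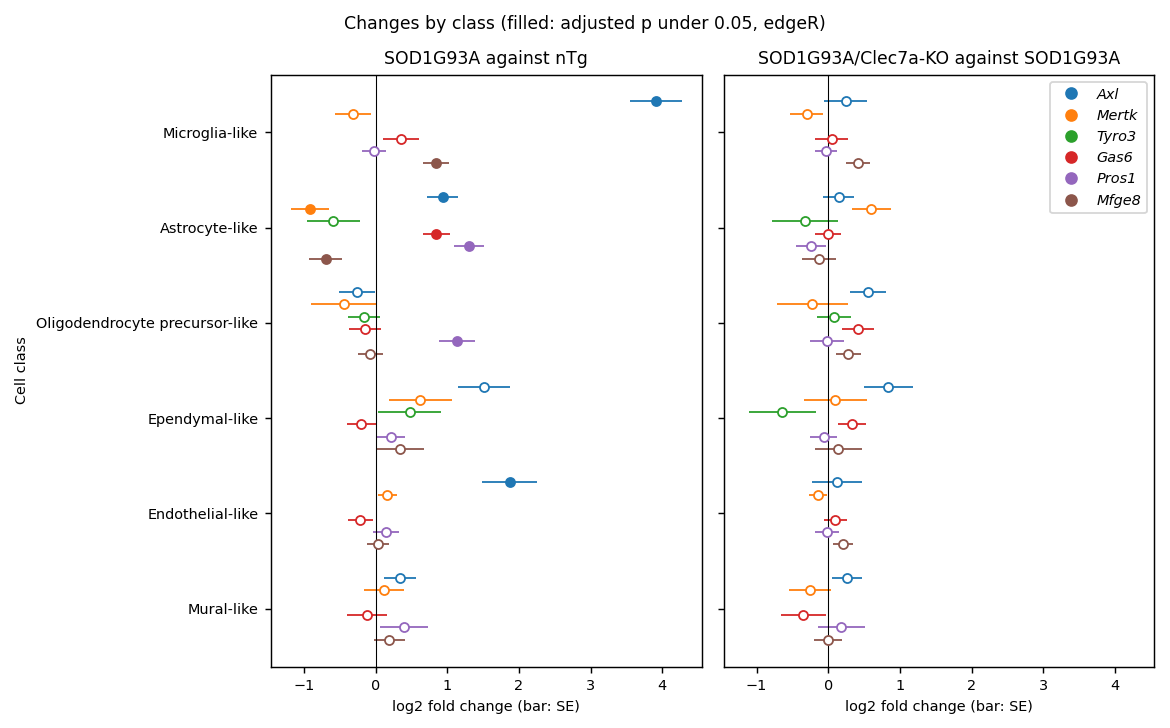
Log2 fold changes of the members tested (points, coloured by gene) with SE (bars) in 6 cell classes, for SOD1G93A against nTg (left) and SOD1G93A/Clec7a-KO against SOD1G93A (right). Filled points passed edgeR's test at an adjusted p of 0.05: Axl reaches 3.91 in microglia-like cells on the left, and no point is filled on the right.

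No member was called for loss of Clec7a on the transgenic background in any of the 6 classes. In microglia-like cells, edgeR called 0 of 5 members and 3 of 16653 genes (0.018%) in SOD1G93A/Clec7a-KO against SOD1G93A. DESeq2 called 0 members too, and 1 member, Mfge8, had an unadjusted p under 0.05. The log2 fold changes were 0.25 for Axl (SE 0.30, edgeR adjusted p = 0.74), −0.30 for Mertk (SE 0.23, edgeR adjusted p = 0.58) and 0.41 for Mfge8 (SE 0.17, edgeR adjusted p = 0.44). They were 0.05 for Gas6 (SE 0.24) and −0.03 for Pros1 (SE 0.16). In astrocyte-like cells edgeR called 0 of 6 members and 1 of 12873 genes (0.00777%), and Mertk, at 0.60 (SE 0.28, edgeR adjusted p = 0.84), was the only member with an unadjusted p under 0.05. The share of genes called was 0.0075% in endothelial-like, 0.039% in ependymal-like, 0.00756% in oligodendrocyte precursor-like and 0.0% in mural-like cells. In those 4 classes edgeR and DESeq2 called 0 members. Axl had an unadjusted p under 0.05 in ependymal-like (log2 fold change 0.83, SE 0.34) and oligodendrocyte precursor-like cells (0.55, SE 0.25).

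Without the transgene, Clec7a-KO against nTg gave 0 of 5 members in microglia-like cells by edgeR (0.03% of genes called) and 0 by DESeq2. Again 1 member, Mfge8, had an unadjusted p under 0.05 (log2 fold change 0.41, SE 0.18, edgeR adjusted p = 1). Without Clec7a-KO replicate 1 its unadjusted edgeR p was 0.13 (log2 fold change 0.28) and without cluster 4 it was 0.11 (0.27). The log2 fold change of Axl was 0.25 (SE 0.31). In astrocyte-like cells 0 of 6 members and 0.0% of genes were called. The interaction, the difference between the transgene's effects with and without Clec7a, was called for no member in microglia-like cells (0.0% of genes called) by edgeR or DESeq2.

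The genes around the TAM system were counted from lists in microglia-like cells. In SOD1G93A against nTg 17 of 48 tested genes on all lists rose and 2 fell, with a median log2 fold change of 0.34 against 0.01 over all genes, of which 19.8% rose and 13.3% fell. The counts by list below are descriptions beside those shares, and no difference between lists was tested. With total UMIs as the scaling 7 of the 48 were called higher and 13 lower, with a median of −0.12 against −0.44 over all genes, so the directions given here hold for TMM scaling. Itgb5, Vkorc1l1, Rac1 and Atp8a1, named below, were then at 0.04, 0.10, 0.13 and 0.14 and were not called (edgeR adjusted p = 0.83, 0.64, 0.48 and 0.65). They are not the only genes named below as higher that lost the call, since only 7 of the 48 were then called higher. Among other phosphatidylserine receptors 3 of 11 rose: Cd300lb (3.86, SE 0.29), the endocytic receptor Lrp1 (0.83, SE 0.21) and Itgb5, a partner of the αv integrin that binds Mfge8 (0.49, SE 0.16). Of the 3 related ligands tested 1 rose and 1 fell: the galectin Lgals3 rose by 5.47 (SE 0.64) and Edil3, which like Mfge8 has an integrin-binding motif, fell by 2.23 (SE 0.63). Vitamin K recycling is needed to make active Gas6 and protein S, and 2 of its 3 genes rose, Vkorc1 (0.98, SE 0.29) and Vkorc1l1 (0.55, SE 0.18). The sheddase Adam17, which can cleave Mertk and Axl from the surface, rose by 0.72 (SE 0.18), and Adam10 did not pass.

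Among nuclear receptors and their sterol targets 6 of 9 were called higher and none lower. Pparg (4.15, SE 0.63), the sterol exporters Abcg1 (2.14, SE 0.21) and Abca1 (1.76, SE 0.31) and the oxysterol receptor Nr1h3 (0.91, SE 0.33) were the largest. Of the interferon receptor and feedback genes 2 of 5 rose, among them Ifnar1, which rose by 1.02 (SE 0.14). Downstream of engulfment receptors Rac1 rose by 0.58 (SE 0.14) and its activator Elmo1 fell by 1.25 (SE 0.15) among 9 tested. Of the genes that place phosphatidylserine 1 of 6 rose, the flippase gene Atp8a1 (0.59, SE 0.19).

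In SOD1G93A/Clec7a-KO against Clec7a-KO 19 of the 48 list genes rose and 5 fell, with a median log2 fold change of 0.28 against 0.0030 over all genes, of which 25.7% rose and 21.0% fell. With total UMIs as the scaling 7 rose and 19 fell, with a median of −0.23 against −0.51. In SOD1G93A/Clec7a-KO against SOD1G93A edgeR called 0 of 48, with a median of −0.05. Without the transgene 1 list gene was called, the phosphatidylserine receptor Cd300lf, which fell by 3.95 (SE 0.35, edgeR adjusted p = 0.00012) in Clec7a-KO against nTg. Its log2 fold change was −0.68 (SE 0.31, edgeR adjusted p = 0.44) between the transgenic groups, and the interaction was 3.27 (SE 0.47, edgeR adjusted p = 0.084).

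Genes with the most similar pattern over the 14 libraries were found by Pearson correlation of log2(CPM + 1) in the tested class where each member was highest, as a description. The libraries differ in group and depth, and the part of either in these values was not tested. For Mertk in microglia-like cells they were Pag1 (0.981), Ncoa2 (0.979) and Tbc1d5 (0.972), and for Pros1 Cldnd1 (0.976), Herpud2 (0.969) and Ndfip2 (0.957). For Gas6 in ependymal-like cells they were Supt20 (0.939), Man2b2 (0.932) and Itfg1 (0.932), and for Tyro3 in oligodendrocyte precursor-like cells Fahd2a (0.858), Asl (0.857) and Napb (0.825). In mural-like cells they were Fto (0.864), Rgs19 (0.861) and Rnpepl1 (0.857) for Axl and Ssbp4 (0.852), Prdx2 (0.844) and Eif3k (0.823) for Mfge8. For Axl in microglia-like cells, a class added after its values were seen, Smpdl3a (0.995), Itgax (0.995) and Vat1 (0.994) were the closest.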

How the data were processed

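The files were deposited by the authors as UMI counts per gene and cell barcode, one matrix per library; the matrix headers name software version 3.0.2, and the submitters' processing notes name Cell Ranger, Seurat, DESeq2 and mm10. Library preparation used 3′ chemistry, per the labels' protocols; the counting mode and strand setting are not given in the sources used here. The lowest barcode of each library held 500 to 511 UMIs in the deposited counts, so barcodes had been filtered before.

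Barcodes with fewer than 500 genes or 1000 UMIs (7127) or over 15% mitochondrial UMIs (4963) were removed, as were 6784 barcodes with the highest Scrublet doublet scores, 0.8% per 1000 barcodes. Remaining cells were scaled to 10000 UMIs and clustered (scanpy 1.11.5, 2000 variable genes, 30 principal components, 15 neighbours, Leiden resolution 1.0). Clusters were named from marker lists. An unnamed cluster of 3787 cells had endothelial and mural markers and was 5.62%, 6.40%, 3.22% and 2.51% of cells in nTg, Clec7a-KO, SOD1G93A and SOD1G93A/Clec7a-KO. UMIs were summed per library and class in the 6 classes with at least 20 cells in every library and tested with edgeR 4.0.16 in R 4.3.3 (TMM, low-count filter, quasi-likelihood test, 14 libraries, no covariate). P-values were adjusted by Benjamini-Hochberg over all genes tested in a class, and a gene was called at an adjusted p under 0.05. The same procedure was tested on simulated data with known changes. Alternatives were RLE or total-UMI scaling, no filter, DESeq2 1.42.0, a replicate block, library number or Xist as covariate, only the groups compared, resolution 0.5, doublets kept, each library left out, clusters left out and microglial RNA subtracted. Identifiers matched GENCODE vM21 for 54587 of 55335 genes with their version. Promoters came from RefSeq (GRCm38.p6), where all 6 genes matched.

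The 6 genes are always named. Of each list the called genes were counted and at most the 4 of largest change named, and the 3 genes of most similar pattern were named per member. The members and the lists were chosen with earlier results of these data known. One list gene is not reported here. Classes below 20 cells in any library were not tested. Depth was 5190.5 to 14886 median UMIs per library, and shares of cells carry counting error beside the spread between libraries.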

Additional observations from a re-analysis of the deposited data

Results flagged for a closer look

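Single libraries that stood apart were looked for in 68 groups of 4 libraries, where chance marks about 1 in 20. Mfge8 in endothelial-like cells of SOD1G93A/Clec7a-KO replicate 2 was 92.7 CPM, far above the other libraries of the group at 70.6 to 74.2. Mertk in oligodendrocyte precursor-like cells of Clec7a-KO replicate 2 was 76.5 CPM, against 28.2 to 35.5 in the others. Neither gene was called in its class in any comparison by edgeR with the filter on low counts. Without that filter Mertk was called lower in SOD1G93A/Clec7a-KO against Clec7a-KO oligodendrocyte precursor-like cells (log2 fold change −0.89, edgeR adjusted p = 0.0024).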

How the results depend on the processing

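Over 28 gene results, 18 of them called, 708 alternative values were computed: 632 kept their direction and their side of the threshold, 41 lost the call, 20 gained it and 15 turned direction. In microglia-like cells, 2 to 3 members were called in SOD1G93A against nTg and 2 to 3 in SOD1G93A/Clec7a-KO against Clec7a-KO under every alternative, but not always the same ones. With total UMIs as the scaling Axl was called higher and Mertk and Pros1 lower in both comparisons, and Mfge8 was not called. With library number as covariate Mertk was added as lower in the first. In the second, Mertk was lost in the 7 fits with 2 calls. For Axl the log2 fold changes were 3.46 to 4.24 and 3.41 to 4.18. Both Clec7a comparisons gave 0 members in all 6 classes under every alternative, as did the interaction in microglia-like cells. Over the other 5 classes, SOD1G93A against nTg gave 7 calls of a member in a class, where 0.107% to 31.6% of genes were called per class. That count was 3 with Xist as covariate, 4 with microglial RNA subtracted and 3 to 8 when 1 library was left out (3 without SOD1G93A replicate 2, 3 without nTg replicate 1, 4 without nTg replicate 3). SOD1G93A/Clec7a-KO against Clec7a-KO gave 6 such calls, where 0.723% to 30.8% of genes were called per class. That count was 10 with doublets kept, 3 with microglial RNA subtracted and 4 to 7 when 1 library was left out. After subtraction Axl turned in endothelial-like (−0.26) and ependymal-like cells (−0.25) between the groups without Clec7a and in ependymal-like cells in SOD1G93A against nTg (−1.80). The ependymal-like values rest on the floor, since subtraction left Axl at 0 in 2 of 3 SOD1G93A and 1 of 4 SOD1G93A/Clec7a-KO libraries, and give no direction. Axl in oligodendrocyte precursor-like cells turned with doublets kept (1.38 and 1.47, against −0.26 and −0.03), and the second ran from −0.18 to 0.13 when 1 library was left out. Mertk in ependymal-like cells between the groups without Clec7a (0.40) turned to −0.10 with library number as covariate and −1.29 after subtraction, where 1 of 4 SOD1G93A/Clec7a-KO libraries was at 0. Pros1 in microglia-like cells in SOD1G93A against nTg (−0.02) turned to 0.0082 without the filter, 0.19 with library number, 0.044 with Xist, and ran from −0.080 to 0.036 when 1 library was left out, above 0 without nTg replicate 2. The cause was not tested beyond these changes of setting. In astrocyte-like cells Axl, Gas6 and Pros1 kept their calls in SOD1G93A against nTg under all 25 alternatives.

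The share of microglia-like cells with an Axl UMI differed between SOD1G93A and nTg by 22.7 points after thinning to 1000 UMIs and by 71.2 points without thinning, and between the transgenic groups by 0.878 to 5.47 points over the alternatives. A fit of only the groups compared was not possible for the interaction, which needs all groups.

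The replicate numbers shared by groups were not used as pairs in the main fit, and whether they pair libraries was not tested. Deviations from the group means of same-numbered libraries correlated from −0.333 to 0.595 (19 pairs, median 0.157, against −0.0498 for other numbers), and 4 of 14 libraries correlated best with their own number. With a replicate block, 2 members were called in microglia-like cells in SOD1G93A against nTg and 3 in SOD1G93A/Clec7a-KO against Clec7a-KO. The other classes together gave 7 and 6 calls of a member in a class. The calls over all genes in microglia-like cells in SOD1G93A against nTg went from 3300 higher and 2220 lower to 3659 and 2667. Tyro3 in microglia-like cells, at 0.145 CPM with 90 UMIs in all, was too low to pass the filter on low counts.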
